A study of Homo sapiens with 23 samples.

Results

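The 10 genes described here belong to Wnt signalling. They are the Dickkopf antagonists DKK1 and DKK3, the ligands WNT5A and WNT7B, the receptors FZD6, FZD8, LRP5 and LRP6, and the intracellular proteins AXIN2 and TCF7L2. They were taken by name, and all 10 have a row among the 21463 of the authors' deposited table. The cells were PC-3, an established human line from a bone metastasis of prostate cancer, transduced with a lentivirus that carries PARG cDNA with cleavable mClover3 behind the TetOne promoter, which doxycycline switches on. PARG is the enzyme that strips poly(ADP-ribose) chains from proteins. Each of the 4 comparisons set wells given 500 ng/ml doxycycline for 72 h against wells given none, within a single clone, I4 or H6, and within experiment N (passage 5) or experiment B (passage 7). The groups held 3 libraries each, from poly(A) RNA of 3 wells, except untreated H6 cells of experiment B with 2, which makes 23 libraries. All groups carry the construct, each clone is a single one, and no cells that lack it were part of these samples, so an effect of doxycycline itself cannot be told apart from one of PARG.

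Wnt ligands bind a Frizzled receptor together with LRP5 or LRP6 at the cell surface, which keeps beta-catenin from being degraded and lets it act in the nucleus with factors of the TCF family such as TCF7L2. DKK1 blocks the pathway by binding LRP5 and LRP6, and AXIN2 is part of the complex that marks beta-catenin for degradation and is itself a widely used target gene of the pathway. Axin is marked for degradation by poly(ADP-ribose) chains that the tankyrases TNKS and TNKS2 attach and the ubiquitin ligase RNF146 reads. In prostate cancer that has spread to bone, DKK1 is known as a secreted inhibitor of bone formation.

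The promoters of 3 genes are shown because DKK1 and TCF7L2 rose and FZD8 fell in all 4 comparisons described below, and because beta-catenin acts through TCF-bound sites. WNT5A also rose in all 4, and its windows were searched but are not shown. Each promoter shown is the 250 bases before the RefSeq start in GRCh38.p14, on the gene's strand. Capitals mark matches to the TCF/LEF motif, written as CTTTGAA or with the last letters changed to give CTTTGAT as well as CTTTGTA and also CTTTGTT, and to the TATA box TATAAA. Both strands were searched.
DKK1 chr10:52314031-52314280, plus strand: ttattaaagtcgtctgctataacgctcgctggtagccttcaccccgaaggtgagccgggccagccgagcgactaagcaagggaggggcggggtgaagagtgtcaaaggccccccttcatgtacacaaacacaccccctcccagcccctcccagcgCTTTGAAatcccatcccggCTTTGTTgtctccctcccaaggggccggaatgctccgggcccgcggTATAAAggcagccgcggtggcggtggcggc
FZD8 chr10:35642297-35642546, minus strand: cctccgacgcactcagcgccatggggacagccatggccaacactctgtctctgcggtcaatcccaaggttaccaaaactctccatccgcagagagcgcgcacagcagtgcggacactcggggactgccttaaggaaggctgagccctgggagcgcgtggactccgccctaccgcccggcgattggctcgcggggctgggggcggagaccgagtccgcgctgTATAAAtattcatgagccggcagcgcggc
TCF7L2 chr10:112949997-112950246, plus strand: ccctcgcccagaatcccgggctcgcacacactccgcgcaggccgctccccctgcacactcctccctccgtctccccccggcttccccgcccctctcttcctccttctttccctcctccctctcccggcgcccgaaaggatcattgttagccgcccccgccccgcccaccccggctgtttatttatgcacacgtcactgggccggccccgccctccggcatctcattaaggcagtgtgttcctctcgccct
The DKK1 window holds 2 TCF/LEF matches, CTTTGAA beginning 95 bases and CTTTGTT beginning 76 bases before the start, and a TATA box 30 bases before it. The FZD8 window holds a TATA box 29 bases before the start and no TCF/LEF match, and the TCF7L2 window shown holds neither. Another of the 3 TCF7L2 windows, before a start inside the gene, holds 1 TCF/LEF match. The pair of WNT5A windows and the LRP5 window hold no match to either motif. Of 35114 promoter windows in the RefSeq table, 12.0% hold a TCF/LEF motif and 10.7% a TATA box. Windows of 5 of the 10 genes were searched. For the other genes, FZD6 among them, no window was searched, which does not show that the RefSeq table lacks one. GC content was 62.8% for DKK1, 65.2% for FZD8 and 68% for TCF7L2, against a median of 58% over all windows. A match is a run of letters and shows no binding.

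The source of every level, fold and q-value is the authors' deposited table. It gives for each comparison the higher of the group means in RPKM (reads scaled to exon length and library size, a unit that was read from the values), a signed fold and an adjusted p, called q here. Values of single libraries were not analysed here, which leaves no SD, and the authors' q-value is the measure of significance. Where a level is given for both groups, the higher is the authors' mean and the lower was computed here as that mean divided by the fold. A gene was called changed at a q-value under 0.05. The level of a single read in weakly expressed genes put the libraries at about 33700000 to 43300000 reads in experiment N and 19800000 to 26500000 reads in experiment B (rounded). The sign of the fold was read from PARG, which was taken as higher with doxycycline. The PARG folds in the authors' deposited table were 1.35 and 1.40 in I4 and 2.15 and 1.99 in H6, for experiments N and B. TIMM23B overlaps PARG on the other strand.

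The labelled cell type was checked against markers. The epithelial genes KRT8, KRT18, KRT19 and EPCAM summed to 327 to 527 RPKM with doxycycline and 271 to 496 RPKM without it, and all 4 were at 1 RPKM or more in every comparison. Of 5 fibroblast and 4 blood cell genes, 1 of each list (COL1A1 and CD68) reached 1 RPKM, and of 3 endothelial genes PECAM1 alone did, in experiment B. The fibroblast list summed to 6.23 to 16.3 RPKM with doxycycline and 6.58 to 18.4 RPKM without it, the blood cell list to 15.5 to 27.6 and 16.3 to 27.4 RPKM, and the endothelial list to 0.560 to 0.887 and 0.751 to 1.35 RPKM. PECAM1 was called lower in 3 of the 4 comparisons of the authors' deposited table. Its fold in I4 in experiment N pointed the same way without a call, at -1.36 (q = 0.0782). KRT8 and KRT18 rose in all 4, with folds of 1.20 to 1.33. KRT19 was called higher in I4 in experiment B and EPCAM in H6 in experiment N, and each had a fold below 0 in 1 other comparison. Of the fibroblast genes COL3A1 was 8.83-fold higher in I4 in experiment N (q = 2.81e-05), at 0.188 RPKM with doxycycline, against 0.0213 RPKM without it, and was called in no other comparison of the authors' deposited table. LUM was 2.34-fold higher (q = 0.00356) and COL1A1 1.16-fold lower (q = 0.0244) in H6 in experiment N of that table, and neither was called elsewhere. The part of these shifts in the results below was not tested. In bulk RNA, fewer cells that express a gene and less RNA per cell cannot be told apart.

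Among the 10 genes, DKK1, TCF7L2 and WNT5A were called higher with doxycycline and FZD8 lower in every comparison. LRP5 rose in 3 comparisons, FZD6 and WNT7B in 2 each, AXIN2 fell in 2, and LRP6 and DKK3 were called in none. The share of all genes called is given with each count. In I4 in experiment N 4 of the 10 rose and 2 fell, where 15.7% of all genes tested were called (7.18% higher, 8.53% lower). For H6 in experiment N 6 rose and 1 fell, against 13.6% of all genes (6.57% higher, 7.07% lower). For I4 in experiment B 4 rose and 2 fell, against 14.0% (7.46% higher, 6.59% lower). For H6 in experiment B 5 rose and 1 fell, against 7.56% (3.63% higher, 3.93% lower). Calls in all 4 comparisons with 1 sign were made for 4 of the 10 genes, 3 higher and 1 lower, against 3.69% of all genes (1.73% higher, 1.97% lower). Of the 10 genes, 9 were at 1 RPKM or more in every comparison. Among the 10324 genes at that level the shares called were larger, 23.1%, 20.5%, 19.3% and 10.2% in the same order, and 4.99% in all 4 with 1 sign. The median log2 fold of the 10 genes was 0.18, 0.22, 0.14 and 0.25 in these comparisons in the order given, beside -0.01, -0.01, 0.002 and 0.01 over 10324 genes of at least 1 RPKM in every comparison. The genes were chosen with earlier results of these data known, so the gap between these shares is a description.

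**Figure D1:**
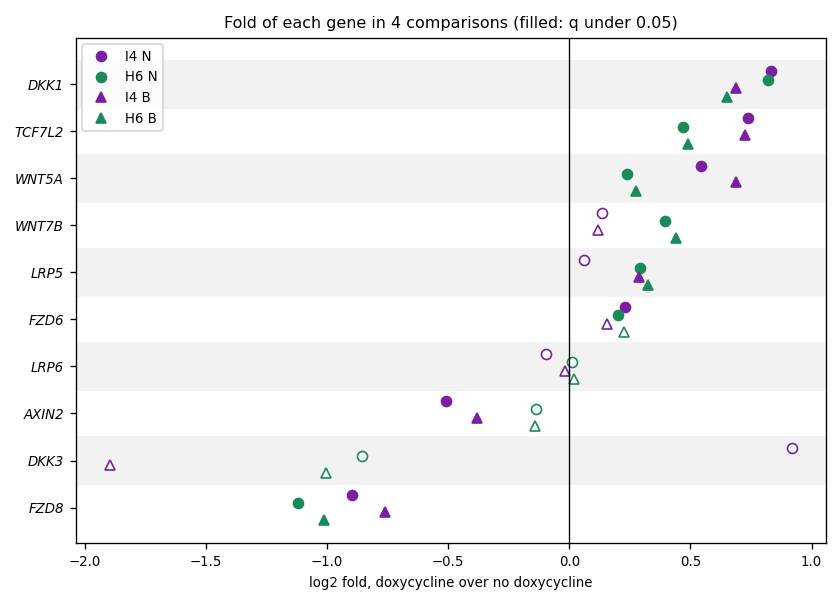
Log2 fold with doxycycline over no doxycycline for each gene, with circles for experiment N, triangles for experiment B, purple for clone I4, green for clone H6 and filled symbols for a q-value under 0.05. The DKK1 symbols lie at 0.65 to 0.83, those of FZD8 between -1.12 and -0.76, the open DKK3 symbols spread from -1.90 to 0.92, and the green and purple symbols separate for TCF7L2, WNT5A, WNT7B, AXIN2 and FZD8.

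DKK1, the secreted antagonist, was by far the most abundant of the 10 transcripts. In the authors' deposited table its mean with doxycycline was 605 RPKM in I4 and 992 RPKM in H6 in experiment N, against 339 and 562 RPKM without doxycycline. In experiment B the same table gives 436 RPKM in I4 and 666 RPKM in H6 with doxycycline, against 271 and 424 RPKM without it. The level was thus higher with doxycycline in both clones each time, and higher in H6 than in I4 under either condition. By level DKK1 ranked between place 22 and place 69 of 21463 rows over the 4 columns. The rise in the authors' deposited table was 1.78-fold in I4 (q = 1.26e-14) and 1.77-fold in H6 (q = 3.94e-14) in experiment N. In experiment B it was 1.61-fold and 1.57-fold in that table, with q-values listed as 0. By the mean of its 4 log2 folds, 0.75, DKK1 stood at place 33 for rises among 10324 genes of at least 1 RPKM in every comparison. DKK1 (ENSG00000107984) lies at chr10:52314296-52318042 (plus strand) in GRCh38, GENCODE v29, and the antisense gene PRKG1-AS1 overlaps it.

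DKK3, a more distant member of the Dickkopf family, was close to absent. With doxycycline I4 had 0.0535 and 0.0243 RPKM by the authors' deposited table in experiments N and B, against 0.0283 and 0.0905 RPKM without it. For H6 that table gives 0.0989 and 0.108 RPKM with doxycycline, against 0.179 and 0.217 RPKM without it. The higher mean of each pair stands for about 10.1 to 33.9 reads per library. Its fold was 1.89 in I4 in experiment N and -1.81 to -3.72 in the other 3 comparisons of the authors' deposited table, with q-values from 0.0938 to 0.616, so no change was detectable at this depth. DKK3 (ENSG00000050165) lies at chr11:11963106-12009769 (minus strand).

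**Figure D2:**
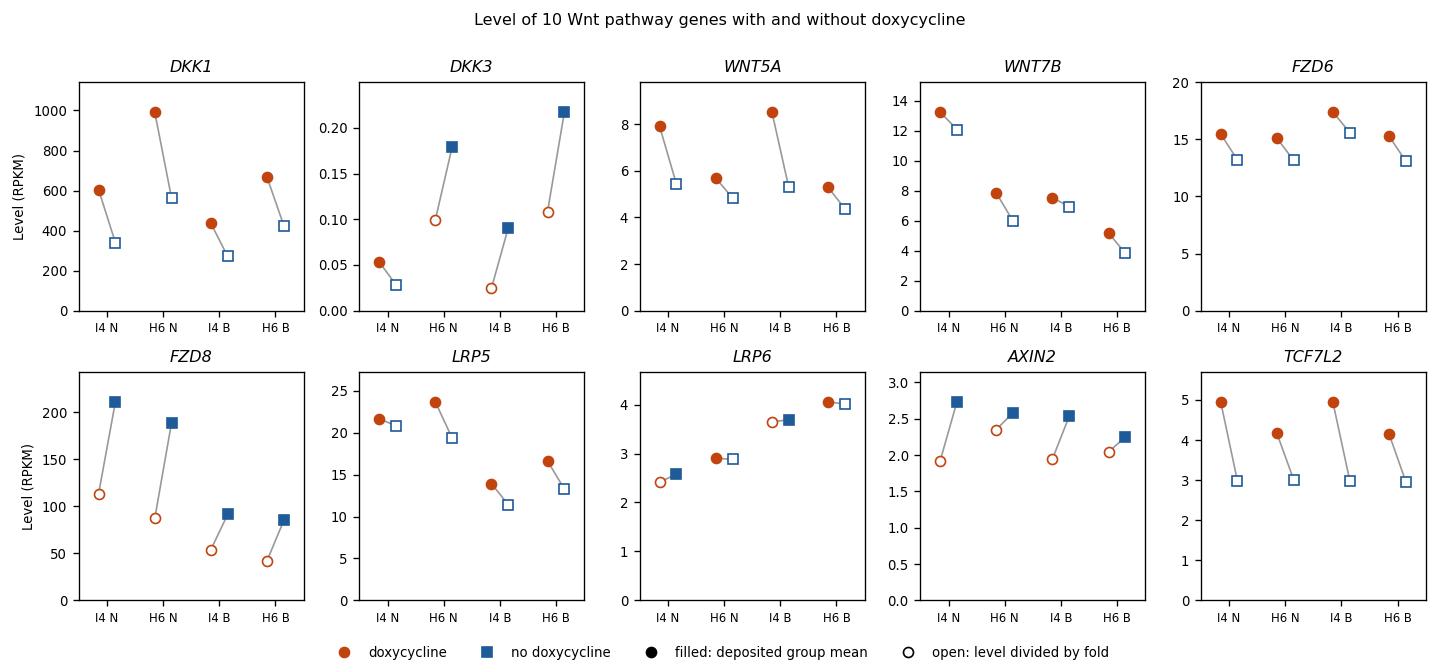
Level in RPKM (linear axes from 0, 1 panel per gene) with doxycycline (orange circles) and without it (blue squares) in each clone and experiment; filled symbols are the authors' group means and open ones that mean divided by the fold. DKK1 reaches 992 RPKM and DKK3 stays under 0.3 RPKM, FZD8 is lower with doxycycline in all 4 pairs, and the level of TCF7L2 without doxycycline lies between 2.95 and 3.01 RPKM throughout.

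The ligand WNT5A, which mostly signals without beta-catenin, rose in both clones, with the larger folds in I4. With doxycycline it reached 7.91 and 8.53 RPKM in I4, against 5.43 and 5.29 RPKM without it, by the authors' deposited table in experiments N and B. In H6 the same table gives 5.69 and 5.30 RPKM with doxycycline, against 4.83 and 4.37 RPKM without it. The untreated levels of the clones therefore lay closer together than the treated ones. The folds in the authors' deposited table were 1.46 (q = 4.12e-12) and 1.61 (q listed as 0) in I4, and 1.18 (q = 0.0159) and 1.21 (q = 0.0377) in H6. The H6 calls did not hold at a q-value under 0.01. WNT5A (ENSG00000114251) lies at chr3:55465715-55490539 (minus strand), and WNT5A-AS1 overlaps it on the other strand.

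WNT7B, a ligand that can signal through beta-catenin, rose in H6 alone by this threshold. It was at 7.86 and 5.19 RPKM with doxycycline in H6, against 5.97 and 3.82 RPKM without it, by the authors' deposited table in experiments N and B. In I4 the same table gives 13.3 and 7.54 RPKM with doxycycline, against 12.1 and 6.95 RPKM without it. The H6 folds in the authors' deposited table were 1.32 (q = 3.37e-06) and 1.36 (q = 0.000189), and the I4 folds 1.10 (q = 0.263) and 1.08 (q = 0.497). All 4 folds point the same way, and the difference between the clones was not tested, since that needs values per library. Without doxycycline the H6 level of WNT7B was 0.493 and 0.549 times the I4 level in experiments N and B. The same ratio lay between 0.752 and 1.38 in experiment N and between 0.728 and 1.45 in experiment B for the middle 90% of genes, taken from percentile 5 to percentile 95. WNT7B (ENSG00000188064) lies at chr22:45920362-45977129 (minus strand).

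FZD8, the more abundant of the 2 Frizzled receptors, had the largest fall of the 10 genes among those called. With doxycycline it stood at 113 RPKM in I4 and 87.0 RPKM in H6, against 211 and 189 RPKM without it, in experiment N of the authors' deposited table. In experiment B the same table gives 53.9 RPKM in I4 and 42.2 RPKM in H6 with doxycycline, against 91.5 and 85.1 RPKM without it. The fall was somewhat deeper in H6 in both experiments. In the authors' deposited table FZD8 was lower with doxycycline by 1.86-fold in I4 and 2.17-fold in H6 in experiment N, and by 1.70-fold and 2.02-fold in experiment B, each with a q-value listed as 0. By the mean of its log2 folds, -0.95, it stood at place 40 for falls among 10324 genes. FZD8 (ENSG00000177283) lies at chr10:35638249-35642278 (minus strand) as a single exon of 4030 bases.

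The level of FZD8 also differed between the experiments. Without doxycycline it was 2.31 times as high in experiment N as in experiment B in I4 and 2.22 times as high in H6. The middle 90% of genes lay between 0.674 and 2.03 in I4 and between 0.689 and 1.87 in H6 for that ratio. The experiments differ in passage, sequencing centre and library kit (both strands in experiment N, strand specific in experiment B), which cannot be told apart. The log2 fold of FZD8 differed by -0.14 in I4 and -0.11 in H6 between experiments N and B, near the medians of 0.10 and 0.08 for the size of that difference over 10324 genes. LRP5 and WNT7B were also higher in experiment N without doxycycline, 1.46 to 1.82 times and 1.56 to 1.74 times, and LRP6 was 0.699 and 0.718 times as high. Unlike those of FZD8, these ratios lay within the middle 90% of genes. TCF7L2 hardly moved between experiments, with ratios of 0.996 and 1.02.

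FZD6, a Frizzled receptor known for its part in planar cell polarity, was at 15.5, 15.1, 17.4 and 15.3 RPKM with doxycycline in I4 and H6 of experiment N and I4 and H6 of experiment B in the authors' deposited table. Without doxycycline it was at 13.2, 13.2, 15.6 and 13.1 RPKM in the same order. The folds lay close together, from 1.12 to 1.17, and passed the threshold in experiment N (q = 0.0129 in I4 and 0.0434 in H6) but not in experiment B (q = 0.191 and 0.0935) of the authors' deposited table. Both calls were lost at a q-value under 0.01. FZD6 (ENSG00000164930) lies at chr8:103298433-103332866 (plus strand), and BAALC-AS1 overlaps it on the other strand.

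The co-receptors LRP5 and LRP6, close relatives that both bind Wnt ligands and DKK1, gave different values. LRP5 stood at 23.7 and 16.6 RPKM with doxycycline in H6, against 19.4 and 13.3 RPKM without it, by the authors' deposited table in experiments N and B. In I4 the same table gives 21.7 and 13.9 RPKM with doxycycline, against 20.8 and 11.4 RPKM without it. LRP5 rose 1.22-fold (q = 0.000515) and 1.25-fold (q = 0.00196) in H6 and 1.22-fold in I4 in experiment B (q = 0.00139) of the authors' deposited table. The exception was I4 in experiment N, with a fold of 1.04 (q = 0.818) in that table. LRP6 was at 2.41 to 4.06 RPKM with doxycycline and 2.58 to 4.01 RPKM without it, and its folds in the authors' deposited table lay between -1.07 and 1.01 with q-values of 0.582 or more. LRP5 (ENSG00000162337) lies at chr11:68312609-68449275 (plus strand), and LRP6 (ENSG00000070018) at chr12:12116025-12267012 (minus strand). BCL2L14, which overlaps LRP6 on the other strand, was at 0.00832 RPKM or less.

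TCF7L2, the DNA-binding partner of beta-catenin, rose in all 4 comparisons. It was at 4.96 and 4.94 RPKM with doxycycline in I4, against 2.97 and 2.99 RPKM without it, by the authors' deposited table in experiments N and B. In H6 the same table gives 4.17 and 4.15 RPKM with doxycycline, against 3.01 and 2.95 RPKM without it. The untreated levels were nearly the same in both clones, and the treated level was higher in I4. The folds in the authors' deposited table were 1.67 and 1.65 in I4 (q listed as 0) and 1.39 (q = 0.000415) and 1.40 (q = 4.07e-05) in H6. With a mean log2 fold of 0.61 TCF7L2 stood at place 84 for rises among 10324 genes. TCF7L2 (ENSG00000148737) lies at chr10:112950250-113167678 (plus strand), and AL158212.2 overlaps it on the other strand.

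AXIN2, the feedback target, was lower in I4. It stood at 1.92 and 1.95 RPKM with doxycycline in I4, against 2.74 and 2.54 RPKM without it, by the authors' deposited table in experiments N and B. In H6 the same table gives 2.35 and 2.04 RPKM with doxycycline, against 2.59 and 2.25 RPKM without it. AXIN2 fell 1.42-fold (q = 0.000199) and 1.30-fold (q = 0.00223) in I4 in the authors' deposited table, while the H6 values were 1.10-fold lower in both experiments (q = 0.408 and 0.757). A level of 2.25 to 2.74 RPKM stands for about 267 to 535 reads per library. AXIN2 (ENSG00000168646) lies at chr17:65528563-65561647 (minus strand).

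Ordered by their level in RPKM, averaged over the 4 columns of the authors' deposited table, the genes ran from DKK1 (675) and FZD8 (144) through LRP5 (19.0), FZD6 (15.8), WNT7B (8.46), WNT5A (6.86), TCF7L2 (4.55), LRP6 (3.31) and AXIN2 (2.53) to DKK3 (0.135). Neighbours such as LRP5 and FZD6, or WNT7B and WNT5A, changed order between columns. In 3 of the genes, DKK1, FZD8 and TCF7L2, the position is on chromosome 10, which also holds PARG. For the genes with an overlapping antisense gene, reads of the pair cannot be told apart in experiment N, and the sources used here do not say whether experiment B was counted by strand.

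The clones were set side by side for the size of the response, H6 minus I4 on the log2 scale. For TCF7L2 the difference was -0.27 and -0.23 in experiments N and B, for WNT5A -0.31 and -0.41, and for FZD8 -0.22 and -0.25. AXIN2 gave 0.37 and 0.24, and WNT7B 0.26 and 0.32. The sign was thus the same in both experiments for each of these 5 genes. It was also the same for LRP5 (0.23 and 0.04) and LRP6 (0.11 and 0.04). For FZD6 (-0.03 and 0.07) and the scarce DKK3 (-1.77 and 0.89) the sign changed between the experiments. DKK1 responded almost equally, at -0.01 and -0.03. Over 10324 genes the size of this difference had a median of 0.09 in both experiments, and percentile 95 was 0.34 in experiment N and 0.38 in experiment B. PARG itself differed by 0.67 and 0.51, with the higher induction in H6. Without doxycycline DKK1 was 1.66 and 1.57 times as high in H6 as in I4, above percentile 95 of all genes (1.38 and 1.45). These differences between clones were not tested.

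**Figure D3:**
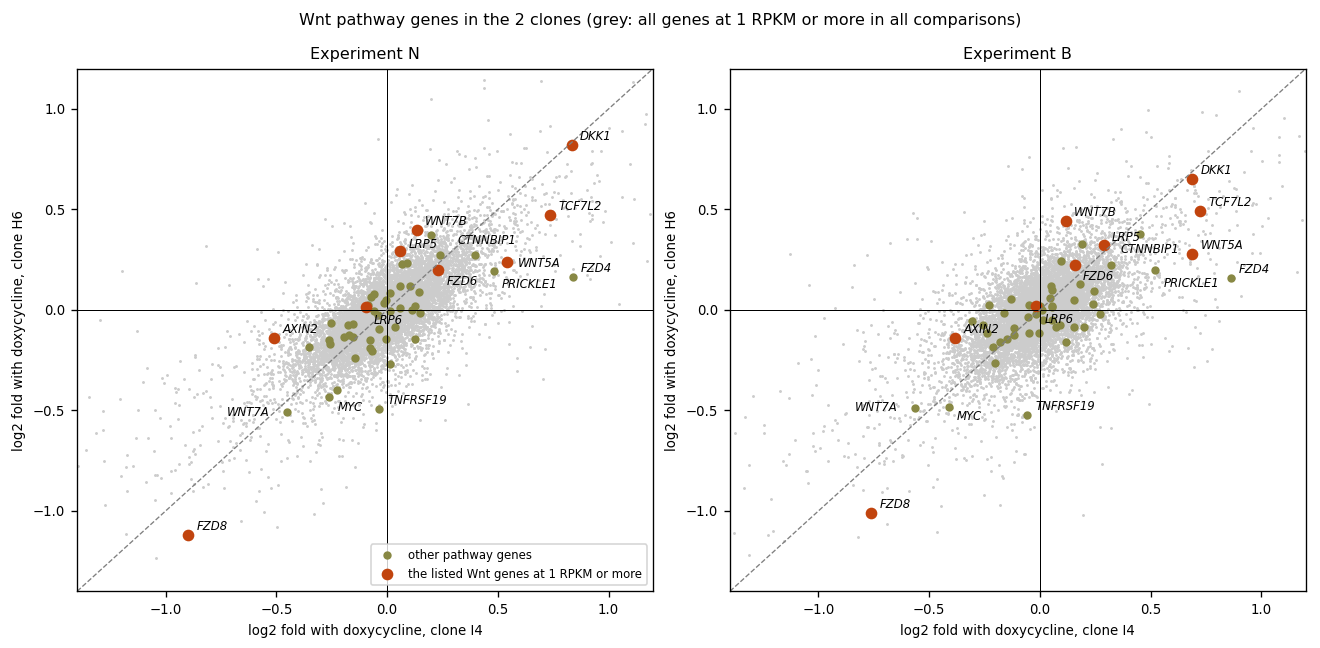
Log2 fold with doxycycline in clone I4 (x axis) and clone H6 (y axis) in experiment N (left) and experiment B (right); large orange points are the 9 listed genes of at least 1 RPKM in every comparison, olive points the rest of the pathway, grey points all 10324 genes (those beyond the axes are not drawn), and the dashed line marks equal folds. DKK1 lies on the line, FZD8 below it on the falling side, and FZD4 far to the right of it with I4 values of 0.84 and 0.86.

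The wider pathway was read from 13 lists that hold 112 gene names, the 10 above included. Of these names 111 have a row, and the other, TLE5, is a second name of AES. At 1 RPKM or more in every comparison were 54 genes. Of these 54, 27 were called in no comparison, a count whose share over all genes at that level was not computed. In I4 in experiment N 7 rose and 9 fell, where 23.1% of the 10324 genes at that level were called (10.4% higher, 12.7% lower). For H6 in experiment N 10 rose and 6 fell, against 20.5% (9.81% higher, 10.7% lower). For I4 in experiment B 11 rose and 6 fell, against 19.3% (10.2% higher, 9.10% lower), and for H6 in experiment B 8 rose and 4 fell, against 10.2% (4.93% higher, 5.32% lower). Without the 9 of the genes above that are among the 54, the other 45 gave 3 higher and 7 lower, 4 higher and 5 lower, 7 higher and 4 lower, and 3 higher and 3 lower in the same order. The median log2 fold of the 54 genes was -0.01, -0.004, 0.05 and -0.01, beside -0.01, -0.01, 0.002 and 0.01 for the 10324 genes. Calls in all 4 comparisons with 1 sign numbered 7 of 54, 4 higher and 3 lower, against 4.99% (2.31% higher, 2.68% lower). Besides the 4 genes above they were WNT7A, CTNNBIP1 and MYC.

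Of 19 ligand genes 4 were at 1 RPKM or more in every comparison, and 1 rose (WNT5A) and 1 fell (WNT7A) in all 4. WNT7A, a close relative of WNT7B, was at 10.4 and 6.82 RPKM with doxycycline in I4, against 14.3 and 10.1 RPKM without it, by the authors' deposited table in experiments N and B. In H6 the same table gives 4.81 and 3.64 RPKM with doxycycline, against 6.85 and 5.11 RPKM without it. WNT7A was lower with doxycycline by folds of 1.37 to 1.48 in the authors' deposited table, the largest of its q-values being 4.73e-05 in H6 in experiment B. Like WNT7B it was lower in untreated H6 than in untreated I4 cells, at 0.480 and 0.506 times the I4 level. WNT3 was at 2.02 to 4.58 RPKM and called in no comparison of the authors' deposited table. Of the secretion factors, PORCN, which attaches the lipid of Wnt proteins, was called lower in H6 in experiment N by 1.32-fold (q = 1.47e-05), and the carrier WLS higher in I4 in experiment B by 1.18-fold (q = 0.0183), in that table.

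Of 10 Frizzled genes 5 were at 1 RPKM or more in every comparison, none rose in all 4 and FZD8 fell in all 4. FZD4 was at 12.9 and 15.4 RPKM with doxycycline in I4, against 7.24 and 8.45 RPKM without it, by the authors' deposited table in experiments N and B. In H6 the same table gives 6.82 and 7.52 RPKM with doxycycline, against 6.08 and 6.73 RPKM without it. FZD4 rose 1.79-fold and 1.82-fold in I4 (q listed as 0), while the H6 folds were 1.12 (q = 0.136 and 0.369) in the authors' deposited table. The H6 minus I4 difference of the log2 folds was -0.67 and -0.70. FZD2, at 6.02 to 15.9 RPKM, was called in no comparison of that table, and neither were the co-receptors RYK and PTK7 at 7.06 to 13.1 RPKM.

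Among 14 secreted antagonists DKK1 alone reached 1 RPKM in every comparison; besides DKK3, described above, SFRP1 and SOSTDC1 were at 0.136 RPKM or less. The Dickkopf receptors KREMEN1 and KREMEN2 were at 1.47 and 0.170 RPKM or less, with no call. Of 9 genes of R-spondins, their receptors and the ligases that remove Frizzled from the surface, LGR4 and ZNRF3 were at 1 RPKM or more, and LGR4 was called higher in I4 in experiment B by 1.21-fold (q = 0.015) in the authors' deposited table. DVL1, which carries the signal from Frizzled, was called lower in I4 in both experiments of that table, 1.28-fold (q = 0.00612) and 1.16-fold (q = 0.0238). Its H6 folds there were -1.13 (q = 0.0559) and -1.14 (q = 0.182), and DVL3 was called in no comparison. Of 11 genes of the beta-catenin destruction complex, 10 were at 1 RPKM or more and none was called in all 4. CTNNB1, which encodes beta-catenin, and the kinase gene CSNK1A1 were at 42.4 to 53.1 and 65.9 to 69.6 RPKM with no call in the authors' deposited table. The genes of poly(ADP-ribose)-dependent axin turnover were at 1.88 to 2.60 RPKM (TNKS), 8.31 to 9.18 RPKM (TNKS2) and 3.62 to 4.27 RPKM (RNF146), and none of the 3 was called in any comparison of the authors' deposited table.

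Of 14 nuclear factor genes 11 were at 1 RPKM or more, 2 rose in all 4 comparisons (TCF7L2 and CTNNBIP1) and none fell in all 4. CTNNBIP1 encodes ICAT, an inhibitor that keeps beta-catenin from binding TCF factors. It was at 25.2 and 18.3 RPKM with doxycycline in I4, against 19.2 and 13.4 RPKM without it, and at 23.3 and 17.8 RPKM with doxycycline in H6, against 19.3 and 13.7 RPKM without it, by the authors' deposited table in experiments N and B. Its folds there were 1.21 to 1.37, with q-values of 0.00186 or less. AES and TLE4, of the Groucho corepressor family, rose in H6 in both experiments of the authors' deposited table. The H6 folds were 1.18 and 1.18 for AES (q = 0.00731 and 0.0326) and 1.29 and 1.26 for TLE4 (q = 0.00034 and 0.0442). In I4 the folds pointed the same way without a call, 1.06 and 1.07 for AES (q = 0.534 and 0.584) and 1.15 and 1.14 for TLE4 (q = 0.359 and 0.344). TLE1, of the same family, fell in I4 in both experiments, 1.20-fold each (q = 0.00409 and 0.00853), with H6 folds of -1.13 and -1.05 (q = 0.109 and 0.948) in that table. PYGO2 was called in no comparison.

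Of 14 feedback and common target genes 6 were at 1 RPKM or more, and DKK1 rose and MYC fell in all 4 comparisons. MYC stood at 31.8 and 25.7 RPKM with doxycycline in I4, against 38.1 and 34.2 RPKM without it, by the authors' deposited table in experiments N and B. In H6 the same table gives 28.4 and 25.5 RPKM with doxycycline, against 38.4 and 35.6 RPKM without it. CCND1, the cyclin D1 gene, was at 168 to 201 RPKM and called in no comparison of that table. Of the other target genes at this level AXIN2 fell in I4 and TNFRSF19 in H6, and ZNRF3 was called in no comparison. LGR5, a target and R-spondin receptor, was at 0.0625 RPKM or less. Of 9 planar cell polarity genes 5 were at 1 RPKM or more, and PRICKLE1 rose in I4 in both experiments, 1.40-fold and 1.44-fold (q = 5.14e-10 and 2.18e-11), against folds of 1.14 and 1.15 in H6 (q = 0.059 and 0.172) in the authors' deposited table. VANGL1 was called in no comparison. PRICKLE2, at 0.417 RPKM or less, fell in I4 in experiment N by 1.87-fold (q = 0.000721) and in H6 in experiment N by 2.08-fold (q = 3.9e-06) in that table. In H6 in experiment B it fell to 0.200 RPKM with doxycycline, against 0.401 RPKM without it (q = 0.000977), and its fold in I4 in experiment B was -1.42 (q = 0.137) in the authors' deposited table.

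Genes called in both experiments of I4 and in neither of H6 were 5 of the 54, AXIN2, DVL1, FZD4, PRICKLE1 and TLE1, against 4.06% of the 10324 genes. Those called in both of H6 and in neither of I4 were 4 of the 54, WNT7B, AES, TLE4 and TNFRSF19, against 1.42%. TNFRSF19, a receptor gene known as a beta-catenin target, fell 1.41-fold and 1.44-fold in H6 (q = 0.000175 and 0.00111), against folds of -1.03 and -1.04 in I4 in the authors' deposited table. A call in one clone and not in the other does not show that the clones differ, and the difference was not tested.

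For each gene called in all 4 comparisons, the 3 genes nearest by Euclidean distance over the 4 log2 folds were taken among those called in all 4 with the same sign at 1 RPKM or more. Nearest to DKK1 were RIPPLY3 at a distance of 0.12, SLC4A11 at 0.16 and CLU at 0.19. For TCF7L2 they were TEF at 0.07, RAB20 at 0.09 and NR2F1 at 0.09, and for WNT5A they were TNFRSF11A at 0.12, CPEB4 at 0.13 and SYTL2 at 0.14. FZD8 had no gene so near, with LYPD3 at 0.35, FJX1 at 0.35 and BRINP2 at 0.36. The distance rests on 4 values per gene.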

How the data were processed

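RNA of 23 libraries was poly(A)-selected and made into libraries that keep both strands in experiment N and strand-specific ones in experiment B, per the labels' protocols. The genome build was hg38, per the submitters' processing notes. Which aligner, counting program and test made the table was not given in the sources used here. Each level is the authors' higher group mean, taken here as RPKM: the deposited columns sum to 283580 to 301832 and low values fall on steps of single reads once multiplied by exon length. The fold is a signed score as deposited, never between -1 and 1, and each q-value is a p-value that the authors deposited as adjusted. The table gives no SD and no depth, and p-values measure at most the spread between wells of 1 clone.

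Folds were converted to log2, and a gene was called at a q-value under 0.05. The models of counts that the design allows for could not be fitted, since values per library were not analysed here. Names were matched to GENCODE v29 for position and exon length (21376 of 21463 rows). Date-like names stand in 27 rows, which were counted and not named. Promoters came from the RefSeq table of GRCh38.p14. The genes named are the 10, the pathway genes called in all 4 comparisons, the 2 of highest level per list, and the 3 nearest genes. The choice of PRICKLE2, TLE1, TLE4, TNFRSF19, TNKS and LGR5 came after seeing their values. The 10 genes and the lists were chosen with earlier results of these data known. Python 3.11.15, pandas 2.3.3 and numpy 2.4.6 were used, and the counting was tested on a simulated table. A further list of marker genes is not reported here.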

Additional observations from a re-analysis of the deposited data

How the results depend on the processing

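Of 25 calls of the 10 genes in 40 gene-by-comparison pairs, 4 were lost at a q-value under 0.01 (WNT5A in H6 in both experiments and FZD6 in both clones of experiment N), and 14 when a fold of at least 1.5 was also required. With that fold the count of the 10 genes called was 3 in I4 and 2 in H6 in experiment N. In experiment B it was 4 in I4 and 2 in H6. The count in all 4 comparisons was then 2 of the 10 (DKK1 and FZD8), and 2 of the pathway genes, the same pair. The share of all genes called with that fold was not computed, so these counts have no background beside them. The next counts are over all 111 pathway genes with a row, those under 1 RPKM included. Of these, 13 were called with 1 sign in both experiments of I4, whatever their result in H6. In both experiments of H6 13 were called, whatever their result in I4. Each count includes the 7 called in all 4 comparisons. The share of all genes called in both experiments of a clone was not computed. No other alternative moved a count by more than 1.5 times. No paired analysis was possible because the table has no values per library, and leaving out single libraries was not run for the same reason. DKK3, at about 10.1 to 33.9 reads per library, is limited by depth.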
